A study of Drosophila melanogaster with 4 samples.

Results

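The genes described here are 9 genes of lipid and hydrocarbon metabolism in oenocytes: Cyp4g1, Cpr, FASN1, FASN2, FASN3, ACC, Desat1, FarO and Hnf4. They were chosen by name, as oenocyte and fatty acid synthesis genes, from the 17518 genes of the deposited table. The choice was made with earlier results of these data known. All 9 matched by symbol and passed the filter on low counts. PolyA RNA was sequenced from cells that carried GFP and were sorted out of dissociated Drosophila melanogaster embryos at stage 11, a source the labels call embryonic myoblasts. The mutant group was homozygous for the allele salm[340] of spalt major (salm), a gene for a zinc finger transcription factor, and the other group was wild type (WT). Each group had 2 libraries. The series calls them technical replicates, so every n is a number of libraries and a p-value reflects how much such libraries scatter, which may be technical. Eggs of both groups came from a 3 h collection at 25 C followed by 7 h of ageing, and homozygous embryos were picked by GFP. The gene or driver that marks the sorted cells with GFP, and what salm[340] changes in the gene, are not given in the sources used here.

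Oenocytes are secretory cells that arise in clusters along the abdominal segments of the fly embryo and handle lipids much as a liver does. Their specification needs salm together with signalling through the Egf receptor, which is why these genes are of interest in a salm mutant. The pathway starts with acetyl-CoA carboxylase and fatty acid synthases, which build fatty acids. Desaturases and elongases modify the chains, fatty acyl-CoA reductases turn them into alcohols or aldehydes, and the cytochrome P450 Cyp4g1 removes the end group to leave a hydrocarbon for the cuticle. Fatty acid synthesis itself is not confined to oenocytes, since most cells need acyl chains for membranes.

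Gene totals were 15170218 and 15668621 counts in the salm[340] libraries, against 21857295 and 20530119 in the WT libraries. The share of mitochondrial genes was 60.9% and 63.2% in salm[340], against 24.8% and 29.3% in WT. CPM here means counts scaled to library size with TMM factors, which sets the bulk of genes equal between libraries, so a change is relative to other genes. The RNA of salm had 954 and 994 counts in salm[340] and 871 and 749 in WT, or 95.5 ± 3.22 CPM against 25.2 ± 0.602 CPM (SD, n = 2 each). The mutant libraries thus held more salm RNA, and its level does not check the labels. Of the 12 myoblast markers all were detected, with a summed level of 1556 and 1654 CPM in salm[340] and 1346 and 1363 CPM in WT. In edgeR's quasi-likelihood test 5 of them were called higher and 1 lower in salm[340], against 4 and 1 in DESeq2 and 1 and 11 with library size alone. Of all genes, 17.2% were called in edgeR and 12.3% in DESeq2, and 77.1% were called lower with library size alone. Of the called myoblast markers, kirre and blow were named after their values were seen. The higher one, kirre, an adhesion gene of founder myoblasts, was at 66.6 ± 5.37 CPM in salm[340] and 23.5 ± 3.29 CPM in WT. The lower one was blow, at 115.1 ± 3.65 CPM in salm[340] and 157.3 ± 1.59 CPM in WT (SD, n = 2 each). Mef2, a general muscle factor, was at 276.2 ± 20.1 CPM in salm[340] and 257.8 ± 5.68 CPM in WT (SD, n = 2 each).

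Of the 9 genes, 3 fell in salm[340] and 0 rose in edgeR's quasi-likelihood test at an adjusted p under 0.05, and 6 did not pass. The 3 were Cyp4g1, FASN3 and Desat1. Over all 10738 genes tested, 17.2% were called, 1078 of them higher and 769 lower in salm[340], so that 7.16% were called lower. Both salm[340] libraries lay outside the WT range for 8 of the 9 genes, 7 below it and 1 above it, where 59.1% of all tested genes did so (30.7% below, 28.4% above). The median log2 fold change of the 9 was -0.65, and that of all tested genes was -0.01. At an unadjusted p under 0.05, 5 of the 9 were lower and 1 was higher. Of all 10738 genes tested, 3338 had such a p in either direction. DESeq2 also called 3 lower and 0 higher, where it called 12.3% of the 10908 genes it gave an adjusted p, and 4.50% lower. With library size alone all 9 were called lower, where 77.1% of all genes were. Without a filter on low counts 5 were lower against 8.07% of all genes. The calls rest on both WT libraries: without WT replicate 1 or without WT replicate 2, 0 of the 9 passed in edgeR, while 4 and 3 were lower at an unadjusted p under 0.05. In those fits 14 genes were called in the whole table.

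**Figure D1:**
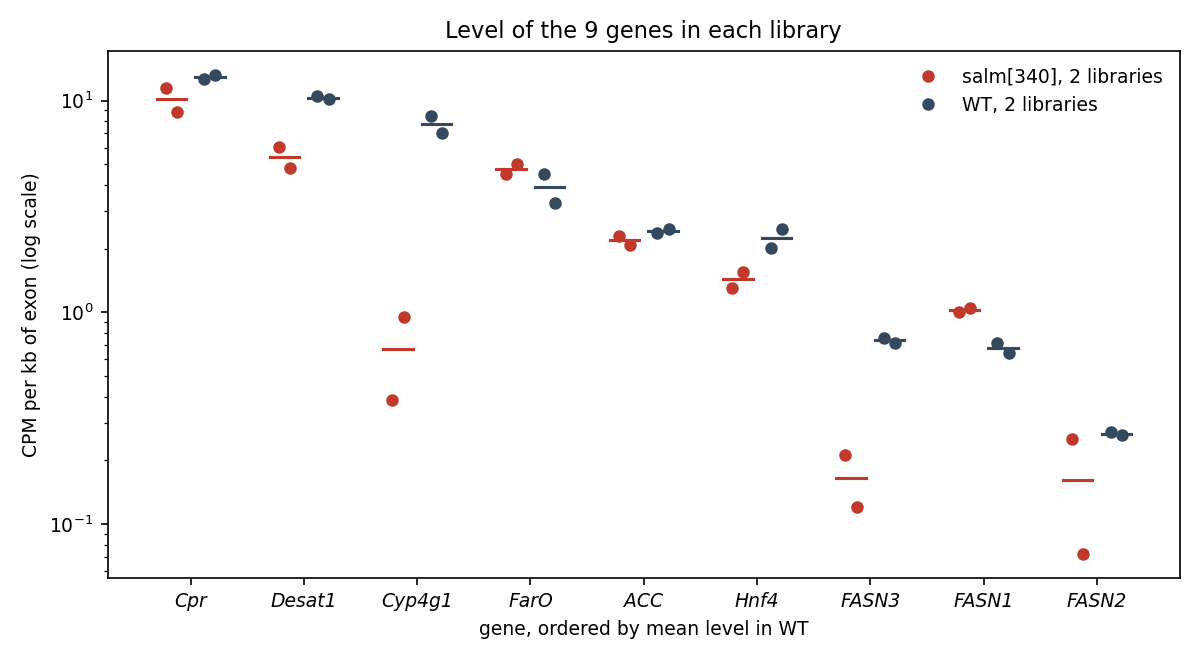
Level of each of the 9 genes in each library, as CPM per kb of exon on a log scale, salm[340] in red left of WT in dark blue, with points for libraries and bars for the mean of 2. Cyp4g1, FASN3 and Desat1 have both salm[340] points below both WT points by a wide margin, and the FarO points overlap.

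Cyp4g1 showed the largest difference of the 9 genes. This gene (FBgn0010019, X, 467057 to 469335, minus strand, BDGP6) encodes the P450 that carries out the last step of hydrocarbon synthesis in oenocytes. It had 9 and 22 counts in the salm[340] libraries and 656 and 482 counts in the WT libraries. The scaled level was 0.880 and 2.17 CPM in salm[340], against 19.3 and 16.0 CPM in WT. Both mutant libraries were far below both WT libraries, and the mutant libraries also differed from each other. Their counting intervals (exact Poisson, 95%, counting error only) were 0.402 to 1.67 CPM in replicate 1 and 1.36 to 3.28 CPM in replicate 2. On the log2 scale the difference was -3.53 (SE 0.323, edgeR adjusted p = 8.341e-05), a level of 8.64% of WT. In bulk samples, fewer cells that make the RNA and less RNA per cell cannot be told apart. Set beside all tested genes by level per kb of exon, Cyp4g1 stood at the 8.69th and 18.3th percentile in salm[340] and at the 66.0th and 60.9th in WT. Without salm340 replicate 1 the log2 fold change was -3.04 and without salm340 replicate 2 it was -4.33. Without WT replicate 1 or 2 it was -3.39 and -3.67, with edgeR adjusted p of 0.256 and 0.185.

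Cpr (FBgn0015623, 2L, 6338836 to 6346280, plus strand) encodes the NADPH-cytochrome P450 reductase that hands electrons to Cyp4g1 and to other P450s of the endoplasmic reticulum. Its counts were 391 and 300 in salm[340] and 1431 and 1337 in WT, which scaled to 38.2 and 29.5 CPM in salm[340], against 42.2 and 44.3 CPM in WT. Both mutant values were below both WT values, and the mutant pair was more spread than the WT pair. This gave a log2 fold change of -0.35 (SE 0.130), which did not pass (edgeR adjusted p = 0.0953). Without salm340 replicate 1 it was -0.56, and without salm340 replicate 2 it was -0.19. It passed without the filter on low counts (-0.39, edgeR adjusted p = 0.0143) and with library size alone (-1.54, edgeR adjusted p = 6.68e-07). With library size alone, however, 77.1% of all genes were called lower and the median gene was at -1.20. Relative to the median gene, Cpr was at -0.339 in that fit and at -0.340 in the main fit.

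The ratio of Cyp4g1 to Cpr within one library does not depend on how libraries are scaled to each other. Per kb of exon, there were 3.38 and 10.8 units of Cyp4g1 for every 100 of Cpr in salm[340], against 67.3 and 52.9 in WT. The WT values were thus several times the mutant values in every pairing of libraries. With 2 libraries against 2, an exact permutation test cannot go below p = 0.333 (two-sided), which this ratio reached. It is 1 of 13 within-library ratios that were computed.

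Fatty acid synthases build the acyl chain from acetyl-CoA and malonyl-CoA, and the fly genome has 3 such genes. FASN1 is the general enzyme, while FASN2 and FASN3 are known for their roles in oenocytes. FASN2 (FBgn0042627, 2L, 3043947 to 3056143) and FASN1 (FBgn0283427, 2L, 3056598 to 3068177) are neighbours on the plus strand, 454 bases apart, and FASN3 (FBgn0287184, 3L, 25752859 to 25762779, minus strand) lies alone, 35661 bases from the next gene on one side and 43607 on the other. Exons of the 3 genes do not overlap each other or any other feature. Fragments that map to several places were counted at each of them, so any stretch shared by the paralogs would add to more than one of the 3.

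FASN3 fell. Its counts were 16 and 9 in salm[340] and 190 and 160 in WT, or 1.56 and 0.886 CPM in salm[340] against 5.60 and 5.30 CPM in WT. The WT pair was close together and the mutant pair lay well below it, at a fitted level of 22.6% of WT. The log2 difference was -2.15 with an SE of 0.386 (adjusted p = 0.004402, edgeR). It lay between -1.81 and -2.63 when either mutant library was left out, and -2.11 and -2.19 without WT replicate 1 or 2 (edgeR adjusted p = 0.351 and 0.323).

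FASN1 had 90 and 93 counts in salm[340] and 213 and 170 in WT. Scaled, that was 8.80 and 9.15 CPM in salm[340], against 6.28 and 5.63 CPM in WT. Both mutant libraries were above both WT libraries, and FASN1 was the 1 gene of the 9 placed so. A log2 fold change of 0.59 (SE 0.227) did not pass (edgeR adjusted p = 0.108). With library size alone as the scaling it was -0.60 (edgeR adjusted p = 0.0416), in a setting that moved the median of all genes by -1.20, so that FASN1 remained 0.599 above the median gene. Without salm340 replicate 1 the log2 fold change was 0.61, and without salm340 replicate 2 it was 0.55.

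FASN2 had the lowest mean of the 9 genes per kb of exon in both lines, though in salm[340] its range overlapped that of FASN3. It had 21 and 6 counts in salm[340] and 75 and 65 in WT, which is 2.05 and 0.590 CPM in salm[340] against 2.21 and 2.15 CPM in WT. Replicate 1 of the mutant was close to WT and replicate 2 was well below it, so 1 library sets the value. The log2 difference was -0.72 with an SE of 0.575 (adjusted p = 0.442, edgeR). It was -1.89 without salm340 replicate 1 (edgeR adjusted p = 0.0125) and -0.10 without salm340 replicate 2.

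The mix of synthase RNAs differed between the lines within each library, where scaling plays no part. FASN1 made up 70.9% (95% Wilson interval 62.4 to 78.1) and 86.1% (78.3 to 91.4) of all FASN counts in salm[340], against 44.6% (40.2 to 49.0) and 43.0% (38.3 to 48.0) in WT. FASN3 made up 12.6% (7.91 to 19.5) and 8.33% (4.45 to 15.1) in salm[340], against 39.7% (35.5 to 44.2) and 40.5% (35.8 to 45.4) in WT. The intervals of the mutant and WT libraries did not overlap for FASN1 or FASN3, and they cover counting error only. For FASN1 the intervals of the 2 mutant libraries did not overlap each other either (62.4 to 78.1 and 78.3 to 91.4). In WT the FASN1 and FASN3 shares were thus nearly equal, whereas FASN1 held most of the counts in both mutant libraries. The FASN2 share was 16.5% and 5.56% in salm[340] and 15.7% and 16.5% in WT, with mutant replicate 1 close to both WT libraries and mutant replicate 2 below them.

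**Figure D2:**
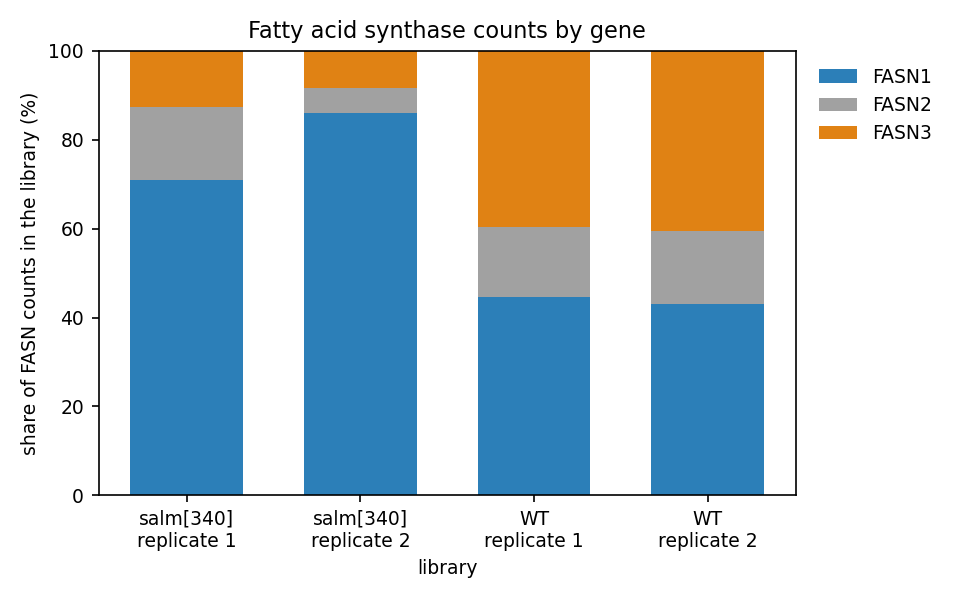
Share of all FASN1, FASN2 and FASN3 counts that fell on each gene, in percent, 1 bar per library with salm[340] left of WT. FASN3 takes 12.6% and 8.33% in the salm[340] libraries and 39.7% and 40.5% in the WT libraries.

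ACC (FBgn0033246, 2R, 7974115 to 7991862, minus strand) encodes acetyl-CoA carboxylase, which makes the malonyl-CoA that fatty acid synthases and elongases consume. Its counts were 212 and 192 in salm[340] and 727 and 680 in WT, or 20.7 and 18.9 CPM in salm[340] and 21.4 and 22.5 CPM in WT. The values of the lines lay close together, the mutant pair just below the WT pair. Its log2 fold change was -0.15 (SE 0.134, edgeR adjusted p = 0.497), and it stayed between -0.10 and -0.23 when any single library was left out.

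Desat1 (FBgn0086687, 3R, 12439600 to 12447616, plus strand), the desaturase that puts the first double bond into fatty acyl chains, fell as well. It had 154 and 122 counts in salm[340] and 888 and 760 in WT, which is 15.1 and 12.0 CPM in salm[340] against 26.2 and 25.2 CPM in WT. The gap between the pairs was larger than the spread of either pair. The level was 52.7% of WT, with a log2 difference of -0.92, an SE of 0.153 and an adjusted p of 0.002809 in edgeR. Without WT replicate 1 or 2 it was -0.90 and -0.96 (edgeR adjusted p = 0.351 and 0.323).

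FarO (FBgn0023550, X, 2201820 to 2203866, minus strand) encodes a fatty acyl-CoA reductase of oenocytes. Its counts were 77 and 86 in salm[340] and 258 and 166 in WT, or 7.53 and 8.46 CPM in salm[340] and 7.61 and 5.50 CPM in WT. The libraries of the lines overlapped, as in no other of the 9 genes. The log2 fold change was 0.28 (SE 0.254, edgeR adjusted p = 0.496), and -0.91 with library size alone, which is 0.289 above the median gene of that fit. FarO shares 38 exonic bases, 2.26% of its own, with the non-coding gene asRNA:CR43637, which is listed on the same strand and had 51 and 63 counts in salm[340] and 150 and 178 in WT.

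Hnf4 (FBgn0004914, 2L, 8687226 to 8709611, minus strand) encodes a nuclear receptor that in flies controls genes of fatty acid oxidation and, in oenocytes, of very long chain fatty acid synthesis. It had 72 and 85 counts in salm[340] and 366 and 403 in WT, or 7.04 and 8.36 CPM in salm[340] against 10.8 and 13.4 CPM in WT. Both mutant libraries were below both WT libraries. A log2 fold change of -0.65 (SE 0.214) did not pass (edgeR adjusted p = 0.0668). It passed without the filter on low counts (-0.68, edgeR adjusted p = 0.0227). Without salm340 replicate 1 or 2 the log2 fold change was -0.54 and -0.79. Its exons share 180 bases, 3.35% of its own, with asRNA:CR44992, which had at most 8 counts in any library.

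**Figure D3:**
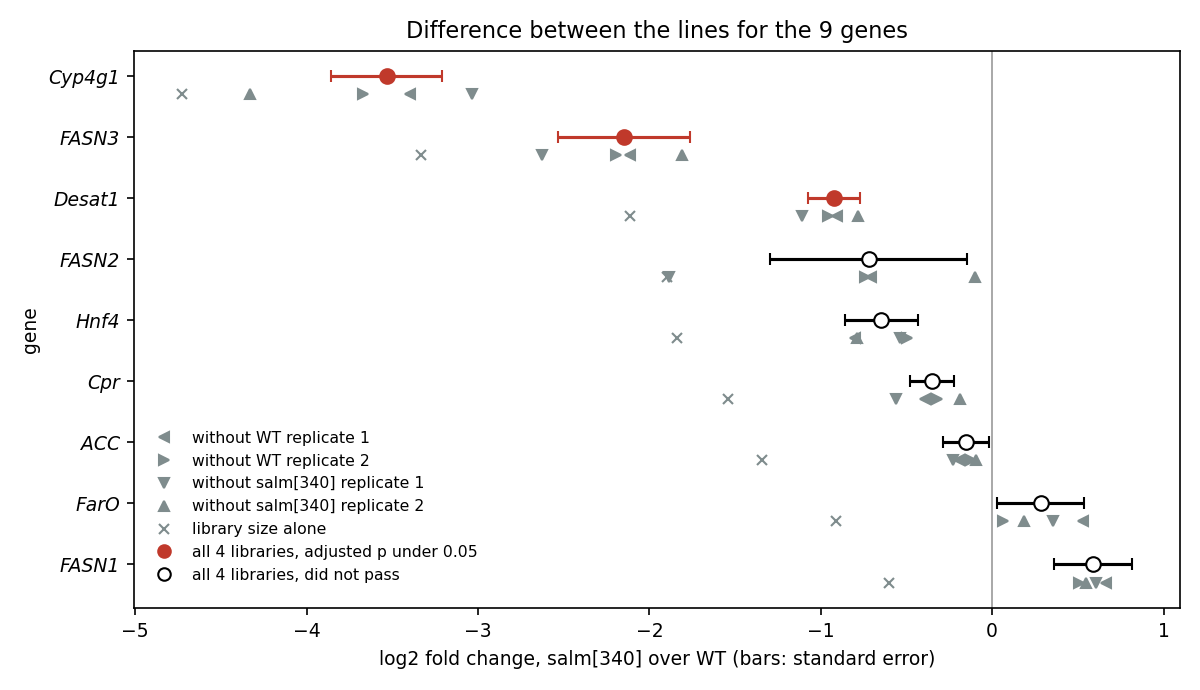
Log2 fold change of salm[340] over WT for the 9 genes, with standard errors, filled red where the adjusted p is under 0.05. Grey marks give the fits without each library and with library size alone, which moves all 9 genes to the left and turns FASN1 and FarO negative.

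Per kb of exon, which allows levels of different genes to be compared, the order of the 9 genes differed between the lines. In salm[340] the order was Cpr (10.1 ± 1.84 CPM per kb), Desat1 (5.44 ± 0.867), FarO (4.76 ± 0.393), ACC (2.18 ± 0.143), Hnf4 (1.43 ± 0.174), FASN1 (1.03 ± 0.0285), Cyp4g1 (0.668 ± 0.399), FASN3 (0.166 ± 0.0649) and FASN2 (0.162 ± 0.127). In WT it was Cpr (12.9 ± 0.450), Desat1 (10.3 ± 0.281), Cyp4g1 (7.75 ± 1.04), FarO (3.90 ± 0.885), ACC (2.43 ± 0.0863), Hnf4 (2.25 ± 0.338), FASN3 (0.737 ± 0.0285), FASN1 (0.681 ± 0.0521) and FASN2 (0.267 ± 0.00490; SD, n = 2 each). Cyp4g1 had rank 7 in salm[340] and rank 3 in WT. The neighbours Desat1 and FarO, and FASN3 and FASN2, overlapped in salm[340], and ACC and Hnf4, and FASN3 and FASN1, overlapped in WT.

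The rest of the pathway was described with lists of related genes that leave out the 9, also chosen with earlier results of these data known. As background for each list, 17.2% of the 10738 genes tested were called in edgeR, 1078 higher and 769 lower (7.16%). DESeq2 called 12.3%, with 4.50% lower. At an unadjusted p under 0.05 in edgeR there were 3338 genes. In the list of elongases and elongation cycle enzymes, which lengthen acyl chains beyond what fatty acid synthase makes, 6 of 14 tested genes fell and 0 rose, while 9 of its 23 genes were too low to test. At an unadjusted p under 0.05, 7 were lower and 0 higher, and DESeq2 called 4 lower and 0 higher. The elongase family gene bond had 3 and 1 counts in salm[340] and 221 and 239 in WT. Summed per line and scaled, that was 36.6 times higher in WT (95% counting interval 14.2 to 134.8). CG18609, another elongase family gene, had 3 and 0 counts in salm[340] and 190 and 189 in WT, 40.2 times higher in WT (13.7 to 195.8). Both were close to undetected in both mutant libraries and plainly present in both WT libraries, with edgeR adjusted p of 0.0001269 for bond and 0.0005114 for CG18609.

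Of 4 tested enzymes of the later steps of the elongation cycle, 2 fell, while Hacd1 (0.19) and Sc2 (-0.30) did not pass. Hacd2, a hydroxyacyl-CoA dehydratase, was at 10.2 ± 1.13 CPM in salm[340] and 18.5 ± 0.789 CPM in WT (log2 fold change -0.86, edgeR adjusted p = 0.006652). The ketoacyl-CoA reductase gene spidey, which oenocytes need, was at 33.7 ± 3.38 CPM in salm[340] and 47.9 ± 2.10 CPM in WT (SD, n = 2 each, log2 fold change -0.51, edgeR adjusted p = 0.01217). The remaining 2 lower genes, CG31522 (-0.31) and Elo68alpha, were named after their values were seen, and neither was called by DESeq2, where CG31522 did not pass (adjusted p = 0.0897) and Elo68alpha was given no adjusted p. Elo68alpha had 0 counts in both mutant libraries and 24 and 16 in WT, at least 4.24-fold lower in salm[340] against a floor of 3 counts over the group. The median of the list was -0.31.

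Among fatty acyl-CoA reductases, the family of FarO, 3 of 11 tested genes fell and 1 rose. CG17562 had 7 and 17 counts in salm[340] and 240 and 250 in WT (log2 fold change -2.70, SE 0.396, edgeR adjusted p = 0.001486). Its neighbour CG17560 had 0 and 1 counts in salm[340] and 40 and 57 in WT, 30.9 times higher in WT (95% counting interval 5.41 to 1231, edgeR adjusted p = 0.01432). As neighbouring paralogs on 3R they may share fragments. CG10097 also fell (-1.39, edgeR adjusted p = 0.04761), but all of its exonic bases are shared with CG10096, so its counts are uncertain, and it did not pass in DESeq2 (adjusted p = 0.11), which called 2 of the list lower and 1 higher. CG5065 rose (44.8 ± 5.76 CPM in salm[340], 29.7 ± 2.00 CPM in WT, SD, n = 2 each, log2 fold change 0.59), a direction that reversed with library size alone (-0.60). The median gene of that fit was at -1.20, so CG5065 remained above it. Whether FarO differs from CG17562 and CG17560 in its response was not tested.

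**Figure D4:**
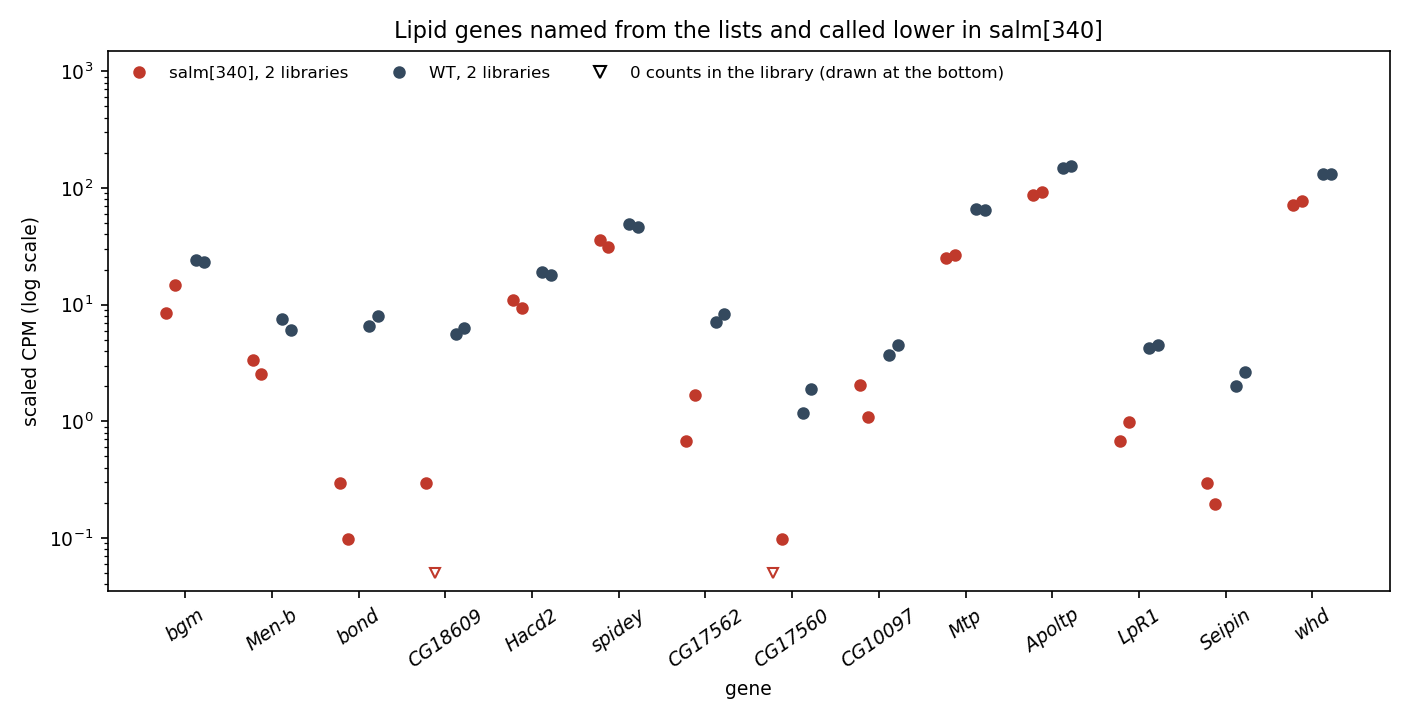
Scaled CPM on a log scale, in each library, of the lipid genes named from the lists that were called lower in salm[340], with salm[340] in red left of WT in dark blue. Triangles at the bottom mark libraries with 0 counts, and bond, CG18609 and CG17560 sit lowest in salm[340].

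Of 5 other fatty acyl desaturases tested, 0 passed in edgeR or in DESeq2, 1 was lower at an unadjusted p under 0.05, and the median log2 fold change was -0.04. Desat2, the closest relative of Desat1, was at 1.18 ± 0.133 CPM in salm[340] and 2.53 ± 0.319 CPM in WT (SD, n = 2 each, log2 fold change -1.10, edgeR adjusted p = 0.138). Another 5 genes were listed as other electron donors of P450s, among them Cyt-b5. The list also holds Cyt-b5-r, which encodes a cytochrome b5-related protein and is not a known P450 donor. Of the 5, 0 passed in edgeR or in DESeq2 and 0 had an unadjusted p under 0.05, with a median of 0.03.

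In the list of fatty acid supply and its control, 3 of 13 genes rose and 2 fell, with a median of 0.14. SCAP, the escort of the lipid regulator SREBP, rose (22.3 ± 3.99 CPM in salm[340], 9.36 ± 0.306 CPM in WT, log2 fold change 1.25, edgeR adjusted p = 0.001077), but with library size alone it was 0.06 and did not pass. ATPCL, which makes cytosolic acetyl-CoA from citrate, was at 66.6 ± 5.09 CPM in salm[340] and 44.6 ± 0.313 CPM in WT (log2 fold change 0.58, and -0.61 with library size alone). The citrate carrier gene sea, named after its value was seen, was also called higher (0.49), but 85.2% of its exonic bases are shared with fabp, so its counts are uncertain. It did not pass in DESeq2 (adjusted p = 0.186), which called 2 of the list higher and 2 lower, and was -0.70 with library size alone. The median of all genes with library size alone was -1.20, so SCAP, ATPCL and sea stayed above the median gene there. The very long chain acyl-CoA synthetase gene bubblegum (bgm) fell to 11.6 ± 4.56 CPM in salm[340], against 23.7 ± 0.752 CPM in WT (log2 fold change -1.03, edgeR adjusted p = 0.01104), and the malic enzyme gene Men-b fell as well (-1.21, edgeR adjusted p = 0.02239). All SD values here have n = 2 per line.

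Lipid storage and transport genes had 4 of 15 lower and 1 higher, with a median of -0.11. Mtp, which loads lipid onto lipoproteins, was at 26.0 ± 1.02 CPM in salm[340] and 65.2 ± 1.53 CPM in WT (log2 fold change -1.32, SE 0.101, edgeR adjusted p = 2.915e-05). Apoltp, a lipid transfer particle protein gene, was at 89.5 ± 3.88 CPM in salm[340] and 150.7 ± 3.41 CPM in WT (SD, n = 2 each, log2 fold change -0.75). The lipophorin receptor gene LpR1 had 7 and 10 counts in salm[340] and 143 and 136 in WT (-2.38, edgeR adjusted p = 0.004145), and the lipid droplet gene Seipin had 3 and 2 counts in salm[340] and 68 and 80 in WT (-3.21, edgeR adjusted p = 0.008529). The 1 called higher, fabp (0.49), was named after its value was seen. It shares 72.1% of its exonic bases with sea, and its counts of 213 and 214 in salm[340] and 482 and 474 in WT were nearly those of sea, so they are not separate results. DESeq2 called 4 of the list lower and 0 higher, and fabp was -0.70 with library size alone, where the median gene was at -1.20. In fatty acid oxidation, 1 of 12 genes fell and 0 rose in edgeR and in DESeq2, with a median of -0.21. In edgeR that is 8.33%, near the 7.16% of all tested genes called lower. At an unadjusted p under 0.05, 4 were lower and 0 higher. The lower gene was whd, the carnitine palmitoyltransferase that admits acyl chains to mitochondria. It was at 73.9 ± 4.16 CPM in salm[340] and 131.3 ± 0.407 CPM in WT (SD, n = 2 each, log2 fold change -0.83, edgeR adjusted p = 0.0001606).

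Other cytochrome P450 genes were listed as the 85 further genes whose symbol is Cyp followed by a digit. This takes in the pseudogenes Cyp6a15Psi and Cyp6t2Psi. It also takes in Cyp1, a cyclophilin gene and not a P450, which was tested and did not pass (-0.09). Of the 85, 38 were tested, 6 rose and 3 fell, and the median was 0.19. That is 23.7% of the tested genes called, against 17.2% of all genes tested. Cyp4g15, the other member of the Cyp4g subfamily, had 1 and 7 counts in salm[340] and 10 and 11 in WT and was too low to test. The largest rises were those of the neighbours Cyp4p1 and Cyp4p2, side by side on 2R and possibly sharing fragments as paralogs. Cyp4p1 had 455 and 453 counts in salm[340] and 3 and 6 in WT. Cyp4p3, on the other side of Cyp4p1 and named after its values were seen, was also called higher (4.18). It had 18 and 30 counts in salm[340] and 5 and 3 in WT, so the rises of these neighbours may not be separate results. Cyp4aa1 rose (1.25, but 0.06 and not passing with library size alone) and Cyp310a1 fell (-1.14). With library size alone the median gene was at -1.20, so Cyp4aa1 stayed above the median gene. DESeq2 called 5 of these genes higher and 2 lower. Cyp4aa1 shares 15.8% of its exonic bases with Strn-Mlck.

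Of the 9 genes listed for oenocyte specification, 5 rose and 0 fell in edgeR and in DESeq2, 1 was lower at an unadjusted p under 0.05, and the median was 0.56. They were salm (1.92), salr (1.62), the Hox gene abd-A (0.56), rho (0.89), which releases the Egf receptor ligand, and Egfr (0.58), the last named after its value was seen. The directions of abd-A, rho and Egfr reversed with library size alone (-0.63, -0.30 and -0.61). That setting put the median of all tested genes at -1.20, so abd-A, rho and Egfr stayed above the median gene. The factors svp and vvl, which mark oenocytes as well as other cells, did not pass: svp was at 28.9 ± 6.93 CPM in salm[340] and 32.6 ± 2.83 CPM in WT, and vvl at 35.4 ± 3.70 CPM in salm[340] and 40.0 ± 3.84 CPM in WT (SD, n = 2 each; log2 fold change -0.17 and -0.18).

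**Figure D5:**
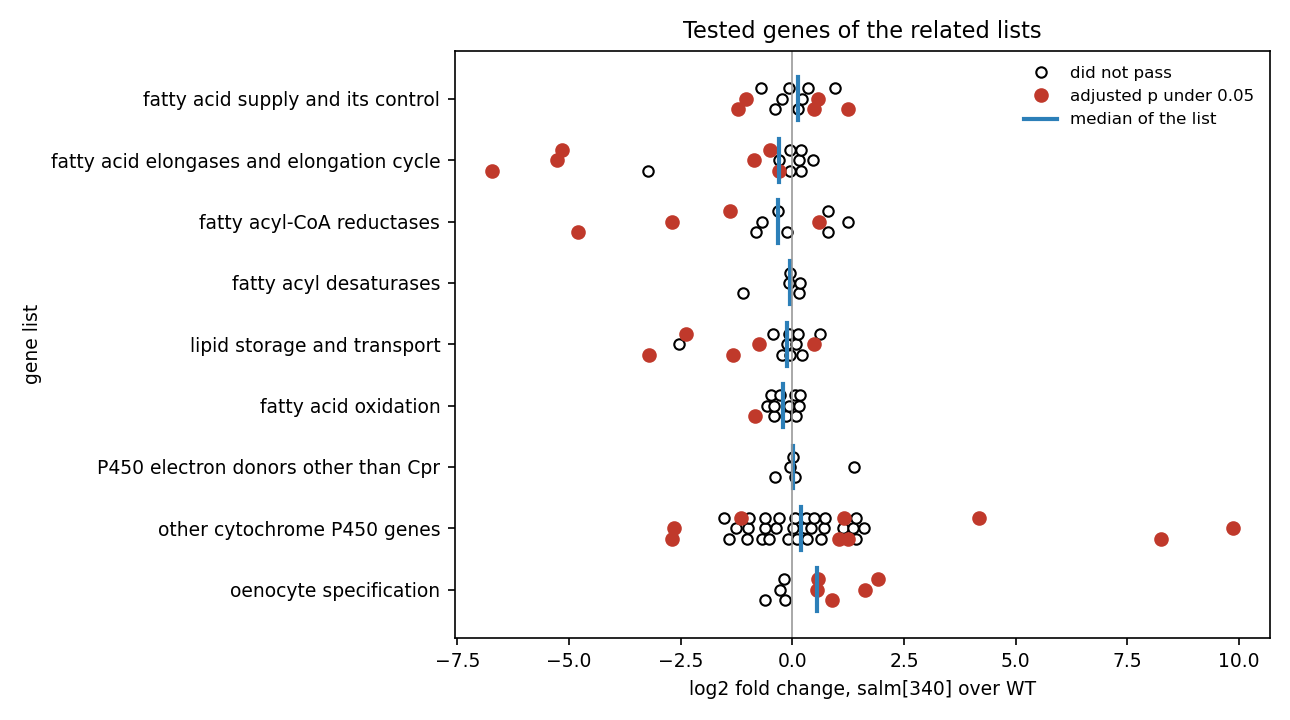
Log2 fold change of salm[340] over WT for every tested gene of each related list, 1 row per list, filled red where the adjusted p is under 0.05, with a blue bar at the list's median. The elongase row has 6 red points, all left of 0, and the row for oenocyte specification has 5, all right of 0.

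The summed levels of markers of cell types other than myoblasts differed between the lines in some lists. All 7 oenocyte markers, and the fat body markers Mtp, Lsd-1 and apolpp, are also in the related lists above. Their calls are those given there and are not separate results. The marker srp is in both the fat body and the gut list. Over all genes tested, 17.2% were called in edgeR. For the 7 oenocyte markers outside the 9 genes, the summed level was 94.5 and 104.3 CPM in salm[340] and 131.1 and 139.4 CPM in WT, 3 of 6 tested fell (bond, CG18609 and spidey), and sit was under 1 CPM in every library. For 8 fat body markers it was 94.7 and 100.3 CPM in salm[340] and 142.6 and 143.6 CPM in WT, with Fbp1 and Lsp1alpha under 1 CPM. Of 6 tested, 1 was called lower (Mtp, 26.0 CPM in salm[340] and 65.2 CPM in WT). Their log2 fold changes were positive for 3 and negative for 3. For 8 hemocyte markers the summed level was 94.7 and 101.9 CPM in salm[340] and 121.5 and 121.6 CPM in WT, with 2 of 7 higher and 2 lower. For 4 tracheal markers it was 210.6 and 203.4 CPM in salm[340] and 248.0 and 251.6 CPM in WT, with 1 of 4 lower. Epidermal markers summed to 824.5 and 879.6 CPM in salm[340] against 634.0 and 638.8 CPM in WT, with 2 of 6 higher and 2 lower. The 2 higher were cora (384.5 CPM in salm[340], 211.0 CPM in WT) and pyd (228.8 CPM in salm[340], 136.3 CPM in WT). The 2 lower were crb and Nrx-IV, and log2 fold changes were positive for 3 and negative for 3. For 8 neural markers the sum was 212.4 and 237.4 CPM in salm[340] and 216.3 and 224.4 CPM in WT, with 2 higher and 2 lower. Gut markers summed to 37.2 and 50.9 CPM in salm[340] and 54.5 and 56.3 CPM in WT with 0 of 4 called in edgeR or DESeq2. Of these sums, srp made up 21.8 and 32.1 CPM in salm[340] and 36.2 and 40.2 CPM in WT. At an unadjusted p under 0.05 in edgeR, 1 gut marker was higher and 2 were lower. Salivary gland markers summed to 37.4 and 50.6 CPM in salm[340] and 47.1 and 50.1 CPM in WT with 1 of 3 lower. With library size alone 0 of the markers in these lists were called higher, and those called lower were 6 of 6 oenocyte, 6 of 6 fat body, 4 of 7 hemocyte, 4 of 4 tracheal, 6 of 6 epidermal, 8 of 8 neural, 2 of 4 gut and 3 of 3 salivary gland markers. In that setting 77.1% of all genes tested were called lower. The part of these markers, and of the mitochondrial share, in the results on the 9 genes was not tested.

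Outside the 9 genes, the 5 genes whose pattern over the 4 libraries was most like that of Cyp4g1 were Lkr, CG11883, Chs2, Prx2540-2 and CR34262. Likeness was the Euclidean distance between log2 CPM values centred over the 4 libraries, taken among the 5566 genes that averaged 10 CPM or more in one of the lines. The leucokinin receptor gene Lkr came closest (distance 0.382), with 4 and 11 counts in salm[340] and 376 and 338 in WT. CG11883 followed (0.731), with 17 and 23 counts in salm[340] and 1114 and 981 in WT. The chitin synthase gene Chs2 (1.47), the peroxiredoxin gene Prx2540-2 (1.48), whose close paralogs make its counts uncertain, and the non-coding gene CR34262 (1.61) were farther away.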

How the data were processed

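PolyA RNA of sorted GFP-positive embryonic cells was sequenced in 2 libraries of salm[340] and 2 of WT, grouped by title and genotype label. The submitters' processing notes name cutadapt 2.4, STAR 2.5.4b and build BDGP6. Fragments were counted by the authors with featureCounts 2.0.1 on the Ensembl BDGP6.32 annotation (release 104), per the file headers, and were deposited as raw counts without normalization. Fragments mapping to several places or features were counted for each, at least 10 bases had to overlap, and strand was not used. Transposon and tRNA features outside the 17518 listed genes were left out. Exonic lengths are those in the per-library files.

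The lines were compared on all 4 libraries with edgeR 4.0.16 in R 4.3.3 (TMM, filterByExpr, glmQLFit, glmQLFTest, no block), with Benjamini-Hochberg adjustment over 10738 genes and a threshold of 0.05. The log2 fold change is salm[340] minus WT and its SE is the absolute value over the square root of F. Within the pairs, chi-square per degree of freedom over nuclear genes was 7.36 in salm[340] and 4.15 in WT, so the libraries of a pair were kept as separate samples. Alternatives were DESeq2 1.42.0, other scalings, no filter, robust dispersion, no mitochondrial genes, a replicate block and leaving out each library. Members and lists were chosen with earlier results of these data known. Entries were matched by symbol, or by RefSeq synonym for Elovl7 (listed as ELOVL) and CG13091 (Sgp), and Mcat and dys did not match. Genes named were the 9, salm and salr, up to 4 called genes per list by adjusted p, and the 5 most like Cyp4g1. Sequences are not used here.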

Additional observations from a re-analysis of the deposited data

How the results depend on the processing

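Calls on the 9 genes depended on the scaling and on single libraries. With TMM, DESeq2 size factors, upper-quartile scaling, robust dispersion, mitochondrial genes left out or the DESeq2 test, the count was 3 lower and 0 higher. It was 5 lower with no filter on low counts, where Cpr (-0.39) and Hnf4 (-0.68) passed. With library size alone all 9 were called lower, as FASN1 (-0.60) and FarO (-0.91) changed sign and Cpr (-1.54), FASN2 (-1.90), ACC (-1.34) and Hnf4 (-1.84) passed; by construction that setting counts mitochondrial reads, and it called 8361 genes in all against 1847, with 5 of the other pathway genes higher and 92 lower, against 16 and 19. ATPCL (-0.61), CG5065 (-0.60), abd-A (-0.63), rho (-0.30), Egfr (-0.61), sea (-0.70) and fabp (-0.70) changed sign there as well, and SCAP (0.06) and Cyp4aa1 (0.06) no longer passed. The median of all genes was -1.20 in that fit, and all of these genes stayed above it. With the DESeq2 test CG10097, sea, fabp, CG31522 and CR34262 did not pass, and Elo68alpha was given no adjusted p.

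Leaving out 1 library at a time gave 0 to 6 of the 9 genes lower, 0 to 1 higher, 14 to 3803 genes in all, 2 to 22 other pathway genes higher and 0 to 31 lower. The log2 fold change ranged from -4.33 to -3.04 for Cyp4g1, -2.63 to -1.81 for FASN3, -1.11 to -0.78 for Desat1, -0.56 to -0.19 for Cpr, 0.51 to 0.66 for FASN1, -1.89 to -0.10 for FASN2, -0.80 to -0.49 for Hnf4, -0.23 to -0.10 for ACC and 0.06 to 0.53 for FarO. A line left with 1 library took its spread from the other line. The cause of the loss of calls without a WT library was not tested.

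The replicate numbers did not pair the libraries: deviations from the group means of same-numbered libraries correlated at 0.0417 over 10738 genes. With 2 libraries per line, either replicate number gives this same value by construction. With a replicate block 4 of the 9 were called lower, Cpr (-0.36) passing in addition, and 2256 genes were called in all. Depth limits the low genes: FASN2 and FASN3 had at most 21 counts in any mutant library.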
